A study of Mus musculus with 6 samples.

Results

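Immunoglobulin transcripts were compared between the pancreas of male OCaR1-/- mice and male wild-type mice. The 54 genes described are all rows of the deposited gene table that were tested, that is, had status OK, and that carry an immunoglobulin biotype, together with Igj, the joining chain gene. They are 54 of 11478 tested rows and 12016 rows in all, and comprise 42 variable segments, 8 joining segments, 3 constant segments and Igj. By locus, 25 belong to the heavy chain, 25 to kappa and 3 to lambda. Membership rests on the annotation and on a row having been tested, not on the direction or size of a difference.

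Both groups held 3 mice aged 3 weeks, and no treatment was given. The wild type is named C57Bl6/N in the protocol, while the strain field reads C56Bl6/N for all 6 samples of both genotypes. The other group is homozygous for the mutant allele, written OCaR1-/- or OCar1-/-, and the labels used here do not say how that allele was made. The table gives 1 FPKM value per genotype (fragments scaled by transcript length and by library size), which combines the 3 mice. Values of the single mice were not analysed here, so no SD or n stands beside a level, and the spread between mice enters only through the authors' test. A gene is called, or is said to rise or fall, where the authors' Cuffdiff analysis gave a q under 0.05. Levels are given in pairs, knockout before wild type. Ratios are knockout over wild type.

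An antibody is built from heavy and light chains. In each developing B cell, DNA recombination joins one variable segment to a joining segment (in the heavy chain with a diversity segment between them), and the product is spliced to a constant segment. The variable part binds the antigen and the constant part sets the class. The light chain is either kappa or lambda, and in mice most antibodies carry kappa. Igj encodes the small protein that links IgM and dimeric IgA molecules into polymers for transport across epithelia. Transcription of rearranged segments is strong in plasma cells, the antibody-secreting stage of the B lineage, so a few such cells can be seen in RNA of a whole organ.

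The tissue was pancreas by its markers: the acinar protease gene Prss2 stood at 59529 and 60473 FPKM, and Cpa1, a carboxypeptidase gene, at 21972 and 23509 FPKM. The targeted gene Tmem63a, which encodes OCaR1 (a link between names that is background knowledge), fell, with 4.91 and 18.3 FPKM (q = 0.00152 in the authors' deposited Cuffdiff table). Depth is unknown, since no counts were used here. An exact 0 can also mean that the estimate failed. Every row of the table reaches 1 FPKM in at least 1 genotype. Of the 54 members, 20 reached 1 FPKM in both genotypes, 28 only in the knockout and 6 only in wild type. The last 34 entered the table through the group in which they were higher, so they differ by construction, and counts over all members describe the table and are no support for a direction. In a bulk sample more cells of a type and more RNA per cell cannot be told apart.

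The joining segments are shown first because their length bears on every value given for them. They are the short stretches that close the variable domain, and in the transcripts used here 6 of the 8 are shorter than the 50-base reads. Sequences are from the transcripts of GENCODE release M21 (GRCm38), 5′ to 3′ on the coding strand. Capitals mark TTCGG in kappa and TGGGG in the heavy chain, the codon of the conserved phenylalanine or tryptophan and the first bases of the glycine codon after it. Searched on the coding strand, one or the other was found in all 8 members and in 12 of 14 annotated immunoglobulin J segments (85.7%).
Igkj1 (chr6:70722562-70722599, plus strand): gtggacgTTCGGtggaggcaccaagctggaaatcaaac
Igkj2 (chr6:70722916-70722954, plus strand): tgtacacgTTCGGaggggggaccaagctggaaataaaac
Igkj4 (chr6:70723548-70723585, plus strand): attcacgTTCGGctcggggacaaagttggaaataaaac
Igkj5 (chr6:70723886-70723923, plus strand): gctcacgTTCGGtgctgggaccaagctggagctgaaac
Ighj1 (chr12:113429781-113429833, minus strand): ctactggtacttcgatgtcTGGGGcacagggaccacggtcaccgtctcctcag
Ighj2 (chr12:113429468-113429515, minus strand): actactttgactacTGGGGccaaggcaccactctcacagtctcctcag
Ighj3 (chr12:113429085-113429132, minus strand): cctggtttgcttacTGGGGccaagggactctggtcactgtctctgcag
Ighj4 (chr12:113428514-113428567, minus strand): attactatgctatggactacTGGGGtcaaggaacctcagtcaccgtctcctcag

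The variable segments shown next are 9 of the 10 called kappa segments, all but Igkv8-28, which let members of a family be compared and the 2 that fell be set beside them, and a called heavy pair. Each line gives the last 60 bases of the segment's transcript, which run into the third complementarity-determining region. Capitals mark the first match to TANTNNTGN on the coding strand, which in these segments covers the tyrosine and cysteine codons that close the framework. All 42 variable segments hold a match in their last 60 bases.
Igkv12-89 (chr6:68834846-68834905, minus strand): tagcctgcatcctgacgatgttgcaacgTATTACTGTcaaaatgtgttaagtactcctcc
Igkv12-44 (chr6:69814631-69814690, minus strand): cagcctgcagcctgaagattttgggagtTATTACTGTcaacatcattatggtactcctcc
Igkv1-135 (chr6:67610449-67610508, plus strand): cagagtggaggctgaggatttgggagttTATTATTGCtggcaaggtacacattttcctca
Igkv1-117 (chr6:68121768-68121827, plus strand): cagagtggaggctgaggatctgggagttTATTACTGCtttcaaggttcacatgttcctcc
Igkv1-110 (chr6:68271208-68271267, plus strand): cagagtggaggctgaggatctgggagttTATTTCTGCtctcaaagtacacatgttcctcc
Igkv6-13 (chr6:70457501-70457560, minus strand): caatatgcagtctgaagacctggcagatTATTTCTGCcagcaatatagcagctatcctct
Igkv6-14 (chr6:70434952-70435011, minus strand): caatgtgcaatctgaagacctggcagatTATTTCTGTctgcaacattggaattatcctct
Igkv14-111 (chr6:68256810-68256869, plus strand): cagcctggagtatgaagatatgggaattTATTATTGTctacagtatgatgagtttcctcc
Igkv16-104 (chr6:68426013-68426072, plus strand): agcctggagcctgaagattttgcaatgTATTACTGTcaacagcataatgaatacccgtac
Ighv1-55 (chr12:115208095-115208154, minus strand): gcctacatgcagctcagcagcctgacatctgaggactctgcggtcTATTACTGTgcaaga
Ighv1-76 (chr12:115847881-115847940, minus strand): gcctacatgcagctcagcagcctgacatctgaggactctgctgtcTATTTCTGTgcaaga

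These sequences show how far reads can be assigned. The last 60 bases of Ighv1-55 are the same, base for base, as those of Ighv1-52 and Ighv1-59. Igkv6-13 and Igkv6-14 were equal at 261 of 280 positions counted without gaps from the 3′ end (93.2%), and Igkv1-117 and Igkv1-110 at 271 of 280 (96.8%). Igkv12-89 and Igkv12-44, of 1 family by name, were equal at 236 of 280 (84.3%). For each member the share of its 50-base windows that also occur, on either strand, in another gene of the annotation was counted. Among the 13 variable segments called higher this share had a median of 30.2% and reached 50.9% in Igkv1-110, with 1 segment, Igkv12-89, sharing no window. Among the 27 not called the median was 18.9% and the highest share 67.2%, in Ighv1-52. Both segments that were called lower, Igkv14-111 and Igkv16-104, shared none. Igkc, Ighm and Igj shared none either, and Iglc2 shared 7.72% with Iglc3. How the authors treated reads that fit several places is not given in the sources used here.

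Constant segments, which every transcript of a chain carries whatever its variable segment, were higher in the knockout for kappa and mu. Igkc, the constant segment of the kappa chain (ENSMUSG00000076609, GRCm38 chromosome 6, 70726435 to 70726757), reached 98.7 FPKM in the knockout against 38.1 FPKM in wild type, 2.59-fold higher (log2 ratio 1.38, q = 0.00152 in the authors' deposited table). Ighm, the constant segment of IgM (ENSMUSG00000076617, chromosome 12, 113418558 to 113422730), had 34.9 and 14.7 FPKM, 2.38-fold higher (log2 ratio 1.25, q = 0.00152 in the same deposited table by Cuffdiff). Both were thus more than 2-fold higher. Iglc2, a lambda constant segment (ENSMUSG00000076937, chromosome 16, 19198401 to 19200351), missed the threshold with 1.86 and 1.08 FPKM (log2 ratio 0.79, q = 0.112 in the authors' deposited Cuffdiff table, p = 0.0115). The constant segments of IgA, IgG, IgD and IgE were not analysed here.

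Igj, the joining chain gene (ENSMUSG00000067149, chromosome 5, 88520512 to 88527891), rose with them. It stood at 5.03 FPKM in the knockout against 1.66 FPKM in wild type, 3.03-fold higher (log2 ratio 1.60, q = 0.00152 in the authors' deposited Cuffdiff table). The gene lies outside the immunoglobulin loci and is not rearranged. Its value rests on a transcript without 50-base windows shared with another gene. Of the 54 members, Igj alone was found in the RefSeq promoter table (GRCm38.p6, under its current symbol Jchain). The octamer ATGCAAAT, a motif known from immunoglobulin promoters, was not in that 300-base window on either strand, and 1.74% of all 32851 windows held it.

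On the FPKM scale the kappa constant segment exceeded the mu segment in both genotypes, by 2.83 times in the knockout and 2.59 times in wild type. It exceeded Iglc2 by 53.0 times in the knockout and 35.3 times in wild type. These are ratios of levels within a genotype, with no test of their difference.

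**Figure D1:**
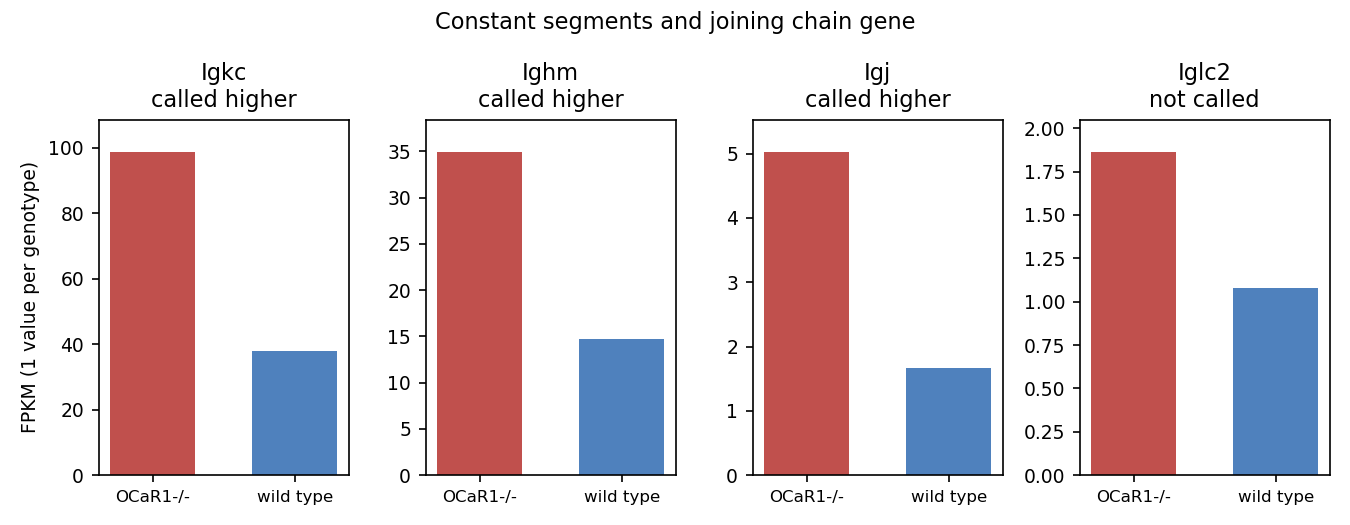
Levels of the 3 constant segments and of Igj in FPKM, 1 bar per genotype and 1 panel per gene, each axis starting at 0, with no error bar since the table combines the mice. Igkc (98.7 and 38.1), Ighm (34.9 and 14.7) and Igj (5.03 and 1.66) were called higher in the knockout, and Iglc2 (1.86 and 1.08) was not called.

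Of the 54 members, 16 were called higher in the authors' deposited table and 2 lower in the knockout, against 482 higher (4.20%) and 384 lower (3.35%) of all 11478 tested rows. Calls in either direction made up 33.3% of the members and 7.54% of all tested rows. The members' median log2 ratio was 1.33, over the 46 with at least 0.01 FPKM in both genotypes, and that of all tested rows was -0.03. Among the 20 members with at least 1 FPKM in both genotypes, which did not depend on 1 genotype to enter the table, 5 were called higher and 0 lower by Cuffdiff (9 had an unadjusted p under 0.05). The share called higher of all 10762 rows with at least 1 FPKM in both was 3.52%, and 1745 of them had an unadjusted p under 0.05. These 5 were Igkc, Ighm, Igj, Iglv1 and Igkv12-89. The median log2 ratio of the 20 was 1.00, and that of all such rows was -0.04.

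Macrophage genes moved in the same comparison. Of 12 tested genes of that list, 11 were called higher, against 4.20% of all 11478 tested rows. C1qa missed the threshold (27.3 and 22.9 FPKM), and all 12 had log2 ratios between 0.25 and 1.32. Emr1, Itgam and Mpeg1, which had the ratio of 1.32, reached 1 FPKM only in the knockout. Their direction was thus set by entry to the table, while the other 9 reached 1 FPKM in both genotypes. The list holds secreted and surface proteins of these cells, such as the lysozyme gene Lyz2, and their summed level was 128 FPKM in the knockout against 71.9 FPKM in wild type. Whether a wider change in immune cells of the samples took part in the immunoglobulin values was not tested.

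Kappa variable segments had the most calls. Of 20 tested, 8 were called higher and 2 lower, and the summed level was 66.8 FPKM in the knockout against 21.3 FPKM in wild type, a ratio of 3.14. Of the 20, 12 reached 1 FPKM only in the knockout, 3 only in wild type and 5 in both. The sum thus depends on which segments entered the table and is no support for a direction. Igkv12-89 led in the knockout, with 17.4 FPKM against 1.08 FPKM in wild type (log2 ratio 4.01, q = 0.00152 in the authors' deposited Cuffdiff table). It made up 26.0% of the knockout sum, and without it the log2 ratio of the sums went from 1.65 to 1.29. In wild type the leading segment was another, Igkv14-126, with 21.5% of the sum: it had 6.60 and 4.57 FPKM and was not called.

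In the Igkv12 and Igkv1 families every tested segment was called. All of them except Igkv12-89 reached 1 FPKM only in the knockout, so their shared direction was set by entry to the table. Both tested segments of the Igkv12 family rose, and Igkv12-44 had 6.04 and 0.541 FPKM (log2 ratio 3.48, q = 0.0378 in the authors' deposited Cuffdiff table). The same held for Igkv1: Igkv1-135 had 4.73 and 0.447 FPKM, Igkv1-117 2.40 and 0.370 FPKM, and Igkv1-110 1.68 and 0.364 FPKM. These levels were 10.6-fold, 6.48-fold and 4.60-fold higher than in wild type. Igkv1-117 shares 49.9% of its windows with Igkv1-110 or with a further member of the family. The levels of Igkv1-117 and Igkv1-110 may therefore not be independent of each other. That depends on how reads that fit several places were treated, which is not given. Igkv1-135 shares 36.5% of its windows with other members of the family, but none with Igkv1-117 or Igkv1-110.

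Igkv6-13, Igkv6-14 and Igkv8-28 were called higher while listed at 0 in wild type, so no ratio is given. Their knockout levels were 4.86, 3.52 and 1.81 FPKM. The third tested member of the Igkv6 family, Igkv6-32, had 0.945 and 1.23 FPKM and was not called. Igkv8-30 had 2.87 and 0.224 FPKM and no call (log2 ratio 3.68, with q = 0.551 in the authors' deposited Cuffdiff table).

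Only Igkv14-111 and Igkv16-104 fell, of all 54 members. Igkv14-111 had 0.422 FPKM in the knockout against 2.71 FPKM in wild type (log2 ratio -2.68, q = 0.00816 in the authors' deposited Cuffdiff table). Igkv16-104 had 0.424 and 1.52 FPKM (log2 ratio -1.84, q = 0.0482 in the same deposited table by Cuffdiff), just inside the threshold. Neither shares windows with another gene. Igkv15-103 stood level, at 4.02 and 4.11 FPKM (q = 0.980 in the authors' deposited Cuffdiff table). Igkv14-111 and Igkv16-104 reached 1 FPKM only in wild type, so they could enter the table only as lower in the knockout. That kappa segments were called in both directions while Igkc rose is therefore a description of the table.

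Heavy variable segments had 4 calls of 20 tested, all higher. Their summed level was 39.0 FPKM in the knockout against 12.7 FPKM in wild type, a ratio of 3.08. Of the 20, 15 reached 1 FPKM only in the knockout, 3 only in wild type and 2 in both. The sum thus depends on which segments entered the table and is no support for a direction. Ighv1-55 had 4.93 and 0.542 FPKM (log2 ratio 3.18, q = 0.00152 in the authors' deposited Cuffdiff table), and Ighv7-3 had 2.71 and 0.447 FPKM (log2 ratio 2.60, q = 0.0323). Ighv2-9-1 and Ighv1-76 were called at 3.12 and 1.45 FPKM in the knockout and were listed at 0 in wild type.

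The Ighv1 family, the one with the most tested members, had 8, of which 2 were called. Of the rest, Ighv1-52, Ighv1-56 and Ighv1-59 were also listed at 0 in wild type, with 1.32, 1.41 and 1.41 FPKM in the knockout, and were not called. Ighv1-39 had the higher level in wild type (0.829 and 1.25 FPKM). Summed over the family, the level was 13.6 FPKM in the knockout against 2.53 FPKM in wild type. Of the 8, 7 reached 1 FPKM only in the knockout and 1 only in wild type, so this sum too depends on entry to the table.

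Size of ratio and call did not go together among heavy segments. Ighv9-4 had the highest knockout level of the 20, 8.10 FPKM against 0.609 FPKM in wild type, and made up 20.8% of the knockout sum. Its log2 ratio of 3.73 missed the threshold, with q = 0.672 in the authors' deposited Cuffdiff table. Ighv5-9-1 (1.83 and 0.106 FPKM, log2 ratio 4.11) was not called either, nor was Ighv5-12, which led in wild type (0.362 and 2.62 FPKM, log2 ratio -2.86, q = 0.485 in the authors' deposited Cuffdiff table). Without Ighv9-4 the log2 ratio of the heavy sums was 1.36 in place of 1.62. These 3 segments thus missed the authors' threshold despite wide ratios, and the spread between mice behind them was not seen.

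Lambda was represented by Iglv1 and Iglv2. Iglv1 had 11.3 FPKM in the knockout against 2.24 FPKM in wild type, 5.02-fold higher (log2 ratio 2.33, q = 0.00152 in the authors' deposited Cuffdiff table). It was the second highest variable segment of the knockout. Iglv2 had 1.39 and 0.738 FPKM, with q = 0.639 in the authors' deposited Cuffdiff table. The segments share 22.2% of the windows of Iglv1.

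**Figure D2:**
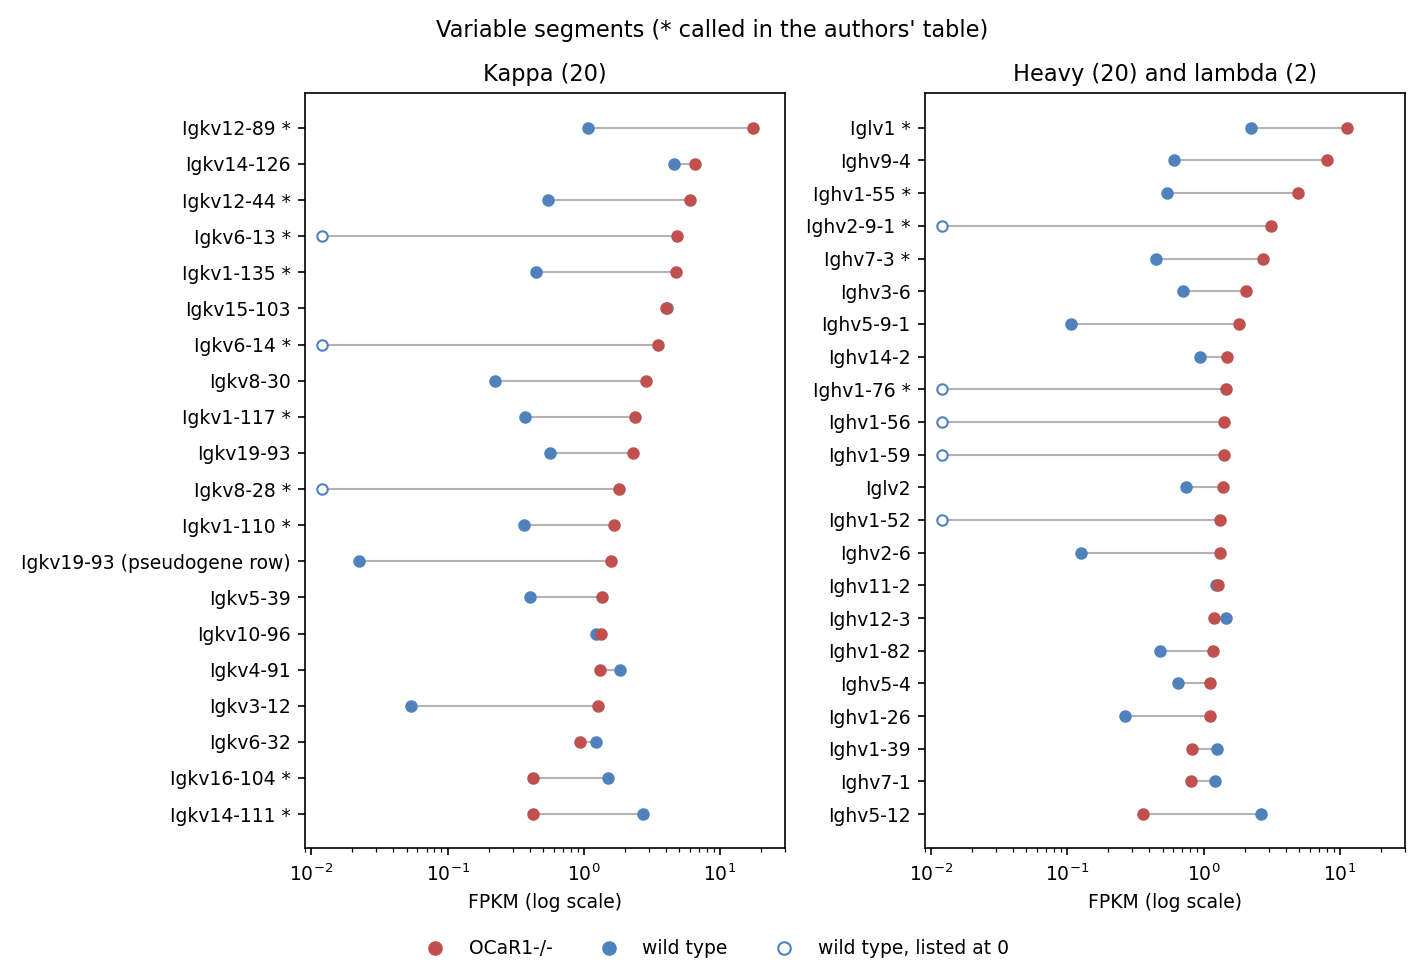
Levels of the 42 variable segments in FPKM on a log axis, kappa on the left and heavy and lambda on the right, ordered by the knockout level. Filled points are the knockout (red) and wild-type (blue) values, open points are wild-type values listed at 0 and drawn at the left edge, and an asterisk marks a call: 13 are called higher and 2, Igkv14-111 and Igkv16-104, lower.

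Among the 27 variable segments without a call, the knockout level was above the wild-type level in 20 and below it in 7. Of the 27, 17 reached 1 FPKM only in the knockout and 4 only in wild type. Their direction was set by entry to the table, and 6 reached 1 FPKM in both. Over all 11478 tested rows, 44.9% had the higher level in the knockout. By Cuffdiff 3 of the 27 had an unadjusted p under 0.05, as had 2006 of all 11478 tested rows. Several had nearly equal levels, such as Igkv10-96 (1.33 and 1.24 FPKM) and Ighv11-2 (1.27 and 1.23 FPKM). Levels were higher in wild type for Igkv4-91 (1.31 and 1.83 FPKM), Ighv12-3 (1.19 and 1.47 FPKM) and Ighv7-1 (0.811 and 1.21 FPKM). Wider gaps without a call were found in Igkv5-39 (1.37 and 0.403 FPKM), Ighv3-6 (2.05 and 0.710 FPKM), Ighv2-6 (1.31 and 0.127 FPKM) and Ighv1-26 (1.12 and 0.265 FPKM). Ighv14-2 lay between these, as did Ighv1-82 (1.17 and 0.480 FPKM) and Ighv5-4 (1.12 and 0.654 FPKM). Igkv3-12 lay nearest to the threshold (1.28 and 0.0539 FPKM, q = 0.0920 in the authors' deposited Cuffdiff table). The largest ratio belonged to a row named Igkv19-93 and typed as a pseudogene (ENSMUSG00000076530), with 1.57 and 0.0224 FPKM and no call. Its identifier has another symbol and another position on chromosome 6 in GENCODE release M21, and its interval in the table is the same as that of the second row named Igkv19-93 (ENSMUSG00000098814, 2.28 and 0.561 FPKM), so both values are uncertain.

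The variable sums were also set against the constant segment of their locus. The summed kappa segments equalled 0.677 of the Igkc level in the knockout and 0.559 in wild type, and the summed heavy segments 1.12 and 0.861 of the Ighm level. The summed lambda segments equalled 6.80 times the Iglc2 level in the knockout and 2.77 times in wild type. Iglv1 made up 89.0% of the lambda sum in the knockout and 75.2% in wild type. Other constant segments of the heavy and lambda loci are not in the denominators. Whether a sum and its denominator come from the same transcripts was therefore not tested. These ratios compare FPKM sums of the listed segments only. Of 216 variable genes of the 3 loci in GENCODE release M21 the members include 41 of that biotype, and no test was made. Which segments are listed depends on entry to the table: of 42, 28 reached 1 FPKM only in the knockout and 6 only in wild type. The 3 constant segments reached it in both genotypes. The higher ratios in the knockout are therefore no support for a difference.

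Joining segments had the highest FPKM values of the members and no call. The lowest of the 16 values was 394 FPKM, for Ighj1 in wild type. The lowest kappa value was 735 FPKM, for Igkj4 in wild type, while the Igkc segment a few kilobases away had at most 98.7 FPKM. FPKM divides by length, and the segments shown above are 38 to 54 bases long, so their levels are not comparable with those of longer segments. Levels are set side by side only among the joining segments of 1 locus, where lengths in GENCODE release M21 are similar. In the deposited table, however, the interval of Ighj2 spans 100 bases, so its levels may not be comparable with those of the other heavy segments. All 4 kappa segments are shorter than a read.

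All 4 kappa joining segments had the higher level in the knockout. Igkj4 went furthest, with 8147 and 735 FPKM (log2 ratio 3.47, q = 0.0923 in the authors' deposited Cuffdiff table, p = 0.00865). Igkj1 had 4496 and 1927 FPKM, Igkj2 6017 and 3455 FPKM, and Igkj5 5646 and 1510 FPKM. In wild type Igkj4 was the lowest of the 4, and in the knockout it was the highest. The summed level was 3.19 times the wild-type level (log2 ratio 1.67), and 1.23 on the log2 scale without Igkj4.

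Heavy joining segments were divided. Ighj4 had 1800 and 466 FPKM (log2 ratio 1.95, q = 0.185 in the authors' deposited Cuffdiff table) and Ighj1 903 and 394 FPKM (log2 ratio 1.20). Ighj2, at 682 and 764 FPKM, and Ighj3, at 451 and 668 FPKM, had the higher level in wild type. The ratio of the sums was 1.67, and on the log2 scale it went from 0.74 to 0.16 without Ighj4. Of the 8 joining segments 0 were called by Cuffdiff and 3 (Igkj4, Ighj4 and Ighj1) had an unadjusted p under 0.05, as had 2006 of all 11478 tested rows.

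**Figure D3:**
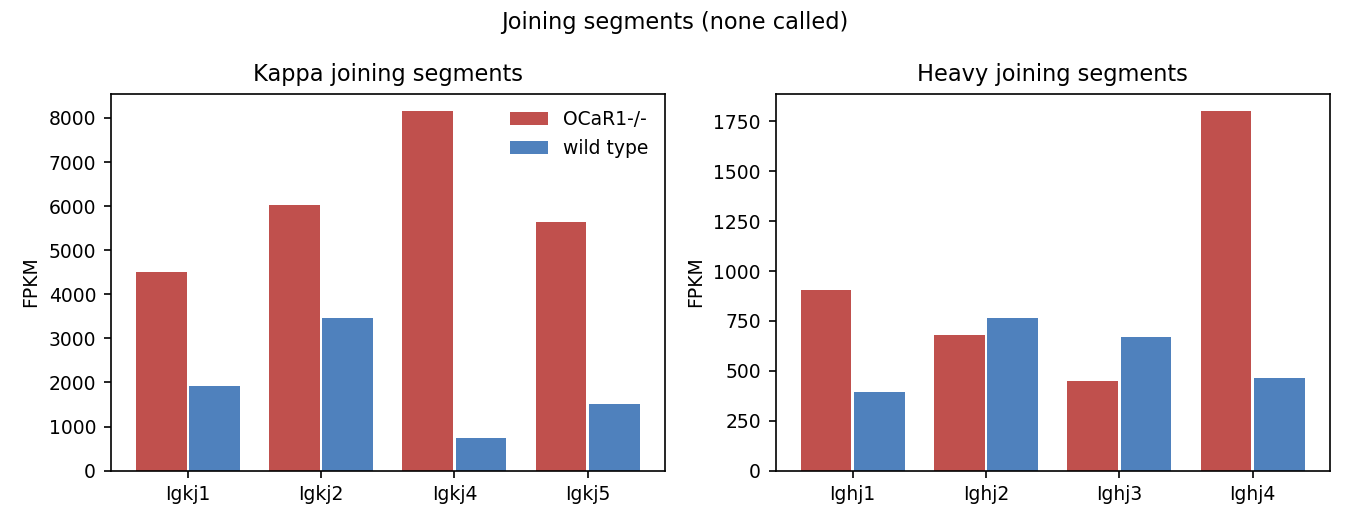
Levels of the 4 kappa (left) and 4 heavy (right) joining segments in FPKM, 1 bar per genotype, axes starting at 0, with no error bar since the table combines the mice. All 4 kappa segments and Ighj1 and Ighj4 are higher in the knockout, led by Igkj4 (8147 and 735), Ighj2 and Ighj3 are lower, and none is called.

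Calls were spread along the loci. The kappa variable segments tested lie 208 to 3116 kb from Igkc, and the 8 called higher 269 to 3116 kb from it. Both that fell lie in the distal part, Igkv16-104 at 2300.8 kb and Igkv14-111 at 2470.0 kb. Igkv1-110, at 2455.7 kb and so beside Igkv14-111, rose. In the heavy locus the 20 segments lie 177 to 2532 kb from Ighm and the 4 called higher 349 to 2427 kb from it. Spearman's rho between distance and log2 ratio was -0.31 over 17 kappa segments and 0.08 over 15 heavy segments. The points share libraries and, within families, reads, so these values are descriptions.

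**Figure D4:**
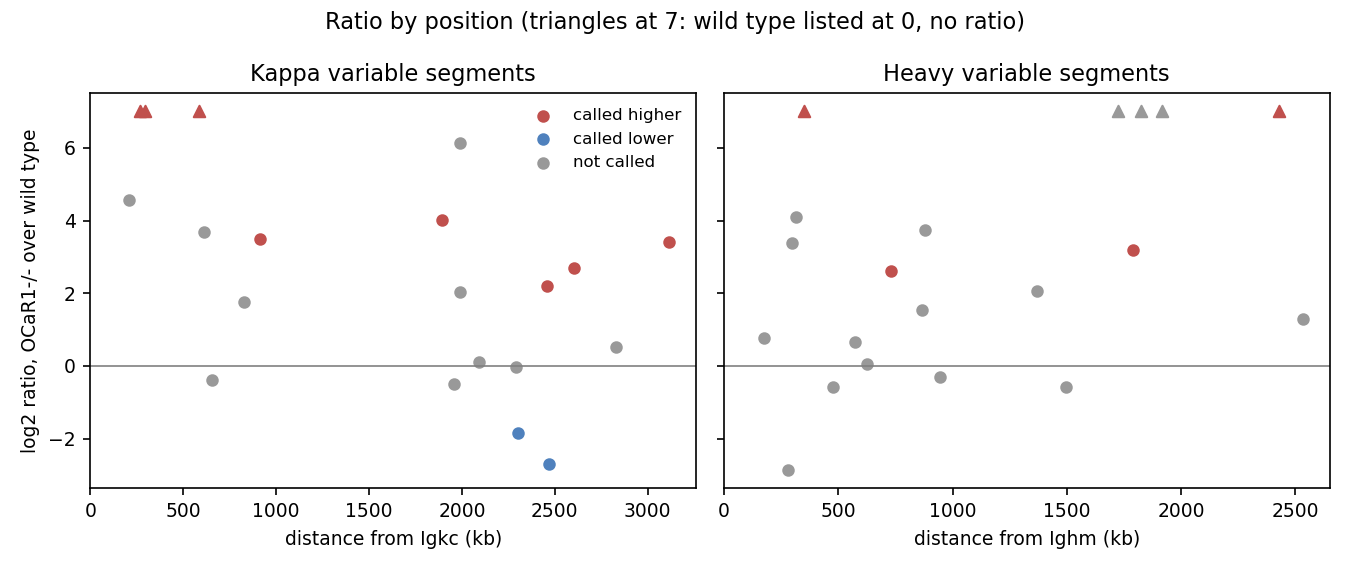
The log2 ratio of knockout over wild type (vertical axis) against the distance in kb of each variable segment from Igkc (left, 20 kappa segments) or Ighm (right, 20 heavy segments). Colours mark segments called higher, called lower or not called, and triangles at the top are segments listed at 0 in wild type, which have no ratio: calls occur from 269 to 3116 kb in kappa and from 349 to 2427 kb in the heavy locus.

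Few other genes of the B lineage could be examined. Of 36 genes listed, 7 were tested and by Cuffdiff 0 were called (3 had an unadjusted p under 0.05, as had 2006 of all 11478 tested rows). Cd79b, which encodes a signalling subunit of the B cell receptor, had 1.25 and 0.859 FPKM (q = 0.182 in the authors' deposited Cuffdiff table), and Cd22, a coreceptor gene, 1.19 and 0.864 FPKM. Xbp1, the transcription factor of secretory cells, had 246 and 304 FPKM, and Sdc1, the gene of the plasma cell marker CD138, 4.03 and 5.50 FPKM, both without a call. Acinar cells also express Xbp1, and epithelia express Sdc1. The median log2 ratio of the 7 was 0.28. Ms4a1, Cd79a, Tnfrsf17, Mzb1 and Prdm1 were among those not analysed here.

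Receptors and attractants of the pathway held 1 call among 4 tested genes and 2 among 6, all higher. Of all 11478 tested rows 4.20% were called higher, and lists this short give no firm share. Of 4 tested genes of antibody transport and Fc receptors, Fcgr3, a receptor for IgG on myeloid cells, rose from 1.36 to 2.18 FPKM (q = 0.00723 in the authors' deposited Cuffdiff table). Fcgr2b, the inhibitory IgG receptor, had 2.13 and 1.30 FPKM, Fcer1g, the shared signalling chain, 5.80 and 3.83 FPKM, and Fcgrt, the neonatal Fc receptor, 7.01 and 5.48 FPKM, none of them called. Of 6 tested genes of recruitment and survival, Cxcl13, the chemokine that attracts B cells into follicles, rose from 3.72 to 7.34 FPKM (log2 ratio 0.98, q = 0.00152 in the authors' deposited Cuffdiff table). S1pr1, a receptor that guides lymphocytes out of tissue and is also expressed by endothelium, rose from 1.97 to 2.80 FPKM. Cxcl12, Cxcr4, Ccl25 and Tgfb1 were not called.

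Lists of other cells and functions gave a mixed picture. Of the T cell list 2 of 17 genes were tested: Thy1, which stromal cells also express, rose (5.51 and 4.03 FPKM) and Tcf7 was not called. Of 16 genes of protein folding in the endoplasmic reticulum, which plasma and acinar cells both need, 3 fell (Sdf2l1, Herpud1 and Derl3). None rose, and the median log2 ratio was -0.13. Of all 11478 tested rows 3.35% were called lower. Of the 5 tested acinar genes, Pnlip and Ptf1a fell and Cel, Cpa1 and Prss2 were not called.

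**Figure D5:**
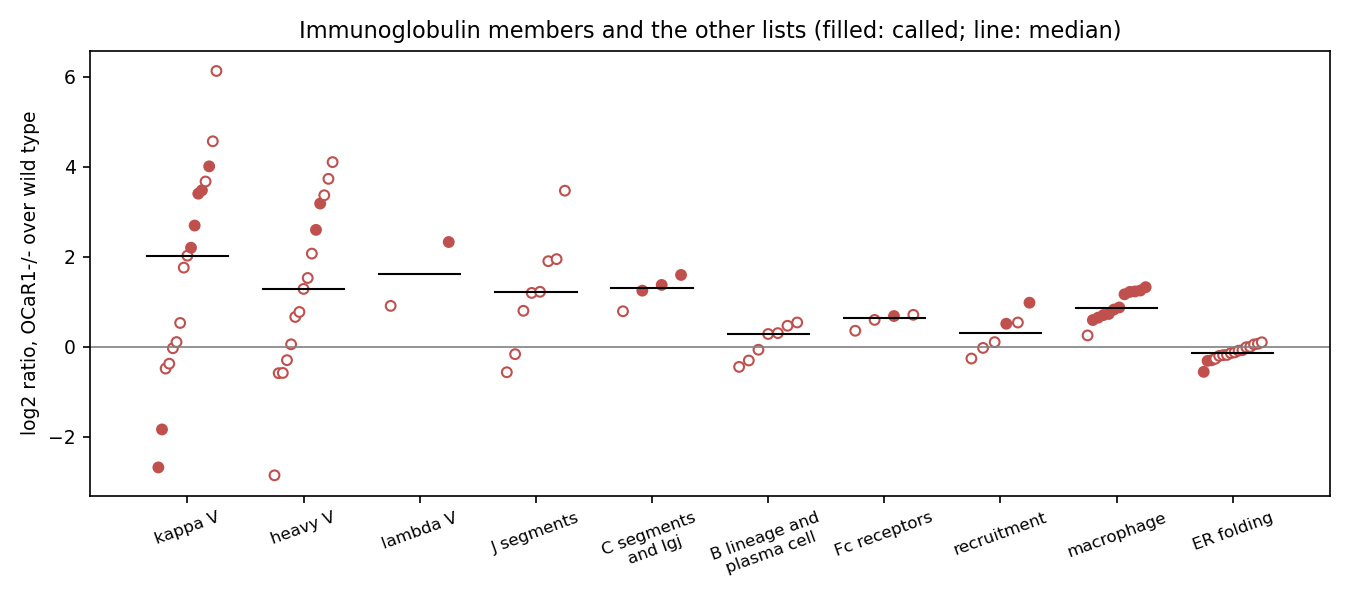
The log2 ratio of knockout over wild type for each tested gene with a ratio, by group: kappa, heavy and lambda variable (V) segments, joining (J) segments, constant (C) segments with Igj, and 5 lists of other genes. Filled points are called in the authors' deposited table and lines are medians: kappa V 2.03, heavy V 1.29, J 1.21, B lineage and plasma cell genes 0.28, macrophage genes 0.85 and ER folding genes -0.13. Of 20 kappa V segments 12, and of 20 heavy V segments 15, reached 1 FPKM only in the knockout. The V medians thus depend on entry to the table and are not comparable with those of the lists. The kappa V median is the uncertain value of Igkv19-93 (ENSMUSG00000098814). Segments listed at 0 in wild type are not drawn.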

How the data were processed

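RNA of whole pancreas was sequenced from 3 OCaR1-/- and 3 wild-type mice. Per the labels' protocols, RNA integrity numbers were 8.20 to 9.10, poly(A) RNA was selected from an input of 2.5 µg, and reads were single with a length of 50 bases. The submitters' processing notes name Cufflinks 2.2.1, Cuffdiff, STAR 2.5.1b and the build GRCm38. They are silent on the annotation release, on multireads and on strand, which are therefore not given in the sources used here. Per the file headers, the deposited table holds 1 FPKM per genotype. The authors' p-value per gene and q-value come from Cuffdiff. Its fold change column was not used, since it holds spreadsheet errors.

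Ratios were recomputed from FPKM with no pseudocount where both values were at least 0.01, and lower values were treated as listed at 0. A call is the authors' q under 0.05 over the whole table; no test was added. The smallest p, 5e-05, is shared by 394 rows, 11 of them members. Named genes are all constant segments, Igj, every called member, the leading variable segments of each locus and members of 7 gene lists; others named (Igkv8-30, Ighv5-9-1, Igkv3-12 and further segments without a call) were chosen after their values were seen. The members and lists were chosen with earlier results of these data known. Window sharing and sequences came from GENCODE release M21 transcripts, in which all 54 identifiers were found. Intervals printed beside sequences are from that release. Other printed intervals of genes are those of the table, with starts counted from 1. The ratio and adjustment code was tested on simulated data. Python 3.11.15, pandas 2.3.3 and matplotlib 3.10.9 were used.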

Additional observations from a re-analysis of the deposited data

How the results depend on the processing

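No paired analysis was possible because the table holds 1 combined value per genotype; for the same reason no replicate could be left out, and whether 1 mouse carries a segment could not be seen. The count of members called higher was 16 throughout, except 11 at a q threshold of 0.01 and 6 where a level of 5 FPKM in either genotype was required. The count called lower went from 2 to 1 and to 0 under these settings. The median log2 ratio of 1.33 became 1.49 under that FPKM filter, 1.29 without pseudogene biotypes, 1.27 without rows that share their interval, 1.34 and 1.15 with a pseudocount of 0.5 and 1 FPKM, 1.25 with variable segments summed by family, and 1.45 without joining segments, a setting chosen after seeing the data. Without its highest member, the log2 ratio of the sums went from 0.74 to 0.16 for heavy joining, 1.62 to 1.36 for heavy variable, 1.67 to 1.23 for kappa joining, 1.65 to 1.29 for kappa variable and 2.09 to 0.91 for lambda variable segments. Kappa variable segments gave 1.62 without the pseudogene and 1.61 without rows that share their interval. The settings that dropped pseudogene biotypes, shared intervals or joining segments removed no called member, so their counts could not change. The 5 FPKM filter still admits members through 1 genotype. Among the 20 members with at least 1 FPKM in both genotypes, 5 were called higher and 0 lower, with a median log2 ratio of 1.00. No sign reversed under these alternatives, but most of them keep the dependence on entry to the table.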

Other observations

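T cell receptor joining segments were the only T cell receptor rows of the table, and both were marked as not tested. Trbj2-7 had 152 FPKM in the knockout against 227 FPKM in wild type, and Trbj2-1 was listed at 0 in the knockout and had 90.7 FPKM in wild type. Like the immunoglobulin joining segments they are very short, so these levels are not comparable with those of longer genes.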
